A study of Homo sapiens with 2 samples.

Results

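The peaks described here are those that ChIP-seq against brachyury gave on chromosome 7 of the wild-type form of MDA-MB-231, an established line of human breast cancer cells. They were taken by chromosome name alone, which selected 398 of the 10342 peaks in the list (3.85%). The study worked on brachyury in lung cancer and used MDA-MB-231 cells, where it describes the factor as overexpressed, to search for downstream targets. The series holds 2 libraries, 1 of immunoprecipitated DNA and 1 of input DNA that no antibody had touched, and the authors called peaks in the former against the latter. The label of the first library gives the cell line without an antibody, so its role is inferred from the name of the peak list and from the methods. Both libraries came from the same wild-type line, so there was no second condition, no replicate and no measure of the error between cultures. The depth of the libraries is unknown, and the intervals below are 95% intervals that cover counting error only.

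Brachyury is a T-box transcription factor that binds DNA and drives the formation of posterior mesoderm and notochord in the embryo. It is silent in most adult tissues and is found again in chordoma and in several carcinomas, where it has been linked to epithelial-mesenchymal transition. A ChIP-seq peak marks a place where more immunoprecipitated fragments than input fragments were counted, and it does not show by itself that a nearby gene responds. Chromosome 7 carries the HOXA cluster, a row of homeobox genes that pattern the body axis, and 3 kinase genes known from cancer. EGFR encodes the receptor for epidermal growth factor, MET encodes the receptor for hepatocyte growth factor, and BRAF encodes a serine/threonine kinase that acts directly below the RAS proteins.

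Positions are in hg19, the build named in the submitters' processing notes, with bases counted from 1. The arms were divided at 59.9 Mb, and each peak was assigned by its midpoint. The short arm held 237 peaks (59.5% of the chromosome) and the long arm held 161 (40.5%), although the short arm made up only 37.5% of the length between the outermost peaks. The density was 3.99 peaks per Mb on the short arm (exact Poisson interval 3.50 to 4.53) and 1.63 peaks per Mb on the long arm (1.39 to 1.90). The short arm was therefore 2.45 times as dense as the long arm (exact interval 2.0 to 3.01). All other chromosomes together had 3.59 peaks per Mb (3.52 to 3.67), a value inside the interval of the short arm and above that of the long arm. The contrast of the arms was known when the chromosome was chosen, so these values are a description and no test was run on them.

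Neither arm was uniform. In whole windows of 5 Mb, the short arm had a median of 20.5 peaks over 12 windows, with a lowest of 7 and a highest of 30. The long arm had a median of 7 peaks over 19 windows, with a lowest of 2 and a highest of 18. On the remaining chromosomes, with Y left aside, the median was 17 peaks over 562 windows. These include chromosome X, at 0.686 peaks per Mb, and any sequence to which reads could not map. Both may lower the median and raise the share of sparse windows elsewhere. At least 20 peaks were counted in 7 of the 12 short-arm windows and in 0 of the 19 long-arm windows, against 43.4% of the windows on all other chromosomes. At most 7 peaks were counted in 1 short-arm window and in 10 long-arm windows, against 18.1% elsewhere. The fullest window of the chromosome, from 10 to 15 Mb, held 30 peaks, and the window from 45 to 50 Mb held 28. The emptiest windows were those from 65 to 70 Mb and from 100 to 105 Mb, with 2 peaks each.

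**Figure D1:**
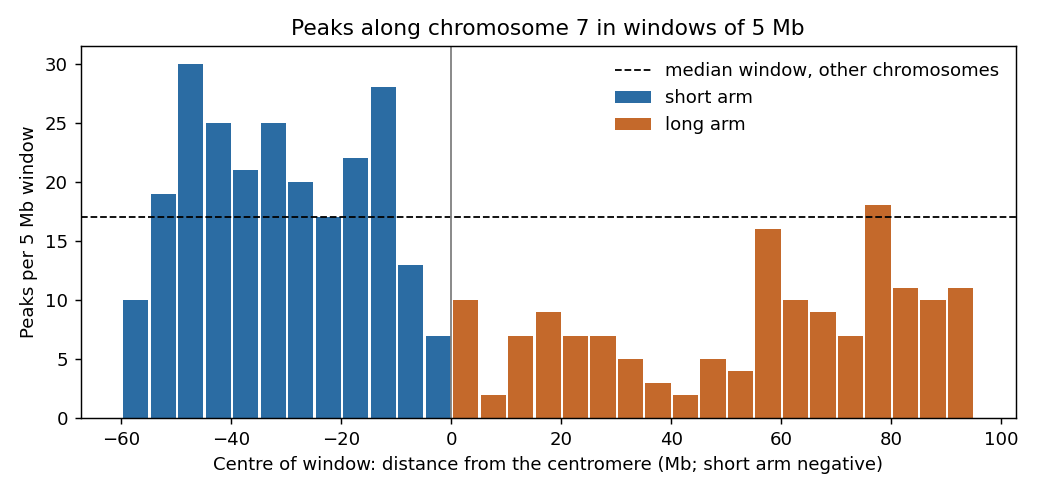
Number of peaks in each whole 5 Mb window of chromosome 7, by the distance of its centre from the centromere in Mb (short arm negative). The dashed line marks the median of 17 peaks on all other chromosomes except Y. Short-arm windows range from 7 to 30 peaks and long-arm windows from 2 to 18, and the short arm is low at both of its ends.

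The plot of windows shows where each arm departs from its mean. The stretches that follow were marked out after the windows had been seen, and the boundary on the long arm is the one that best divides its windows into 2 densities by Poisson likelihood. Between 10 and 50 Mb the short arm carried 188 peaks at 4.70 per Mb (4.05 to 5.42). Its first 10 Mb carried 29 peaks at 2.90 per Mb (1.94 to 4.16), and its last stretch from 50 to 60 Mb carried 20 peaks at 2.0 per Mb (1.22 to 3.09). The windows from 50 to 55 and from 55 to 60 Mb held 13 and 7 peaks, and the window from 60 to 65 Mb held 10. The last 2 of these windows share the interval across the centromere that held no peak, chr7:57921699-61106009. How much of it was open to read mapping was not analysed, so values for stretches that include it may be too low. On the long arm, 61 peaks lay from 60 to 115 Mb at 1.11 per Mb (0.848 to 1.42). From 115 to 155 Mb, where the whole windows end, the count was 92 peaks at 2.30 per Mb (1.85 to 2.82). Peaks beyond 155 Mb, among them the one at 157.25 Mb, are in neither stretch. Since the boundary was chosen to separate the 2 long-arm stretches, the distance between their values is no evidence of a difference. The bounds on the short arm were also picked from the windows, so the same holds for its stretches. The input signal along the chromosome is not in the list, so DNA copy number and binding cannot be told apart as sources of these counts.

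Spacing between neighbouring peaks shows how the density of each arm was made up, and its order between the arms follows from the densities. The median gap was 173 kb on the short arm (order-statistic interval 146 to 204, 236 gaps) and 388 kb on the long arm (328 to 493, 160 gaps), against 156 kb on all other chromosomes (151 to 161). Gaps of over 1 Mb made up 2.12% of the short-arm gaps (5 gaps, Wilson interval 0.908 to 4.86) and 14.4% of the long-arm gaps (23 gaps, 9.77 to 20.6), against 3.54% elsewhere. Gaps under 20 kb were few on both arms. They made up 5.93% on the short arm (14 gaps, 3.57 to 9.71) and 1.88% on the long arm (3 gaps, 0.640 to 5.37), against 9.11% elsewhere. The short arm was thus as dense as the rest of the list while its share of close neighbours was nominally lower, with an interval that reached past the value elsewhere.

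**Figure D2:**
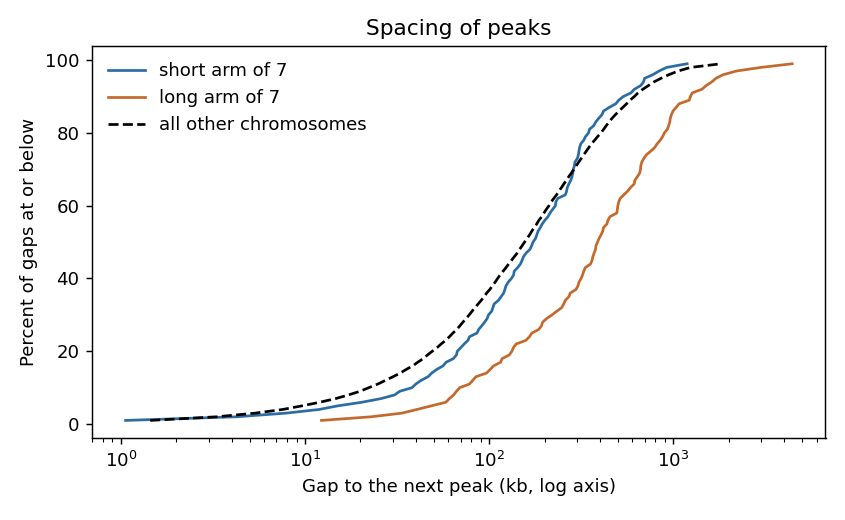
Percent of gaps between neighbouring peaks at or below each length in kb (log axis) for the short arm, the long arm and all other chromosomes, drawn at every percentile from 1 to 99. The long-arm curve lies to the right of the others, with a median of 388 kb against 173 kb on the short arm and 156 kb elsewhere.

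The 3 longest intervals without a peak lay on the long arm. The first ran for 5.29 Mb, chr7:86527556-91816058, the second for 4.49 Mb, chr7:102575688-107064720, and the third for 4.38 Mb, chr7:66070379-70447034. The interval that spans the centromere ranked 4, with 3.18 Mb, chr7:57921699-61106009. How much of it was open to read mapping was not analysed, so its rank beside the others is nominal. It was bordered by a peak of 1133 bp with a score of 62.0, chr7:57920566-57921698, and by one of 1189 bp with a score of 66.1, chr7:61106010-61107198. Both bordering peaks scored above the median of their arm.

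The closest neighbours of the chromosome lay on the short arm. Gaps under 2 kb separated 5 pairs of short-arm peaks and 0 of the 160 long-arm pairs, for which a count of 0 allows a share of up to 1.88% by the rule of 3 counts and up to 2.34% by the Wilson interval. The short-arm share was 2.12% (0.908 to 4.86) against 1.31% elsewhere, so the share elsewhere was within the bounds of both arms. The closest pair was 0.616 kb apart and joined a peak of 894 bp with a score of 55.3, chr7:43587237-43588130, to a peak of 1037 bp with a score of 105.01, chr7:43588747-43589783. The next pair was 0.667 kb apart, chr7:13419203-13420133 and chr7:13420801-13421764, with scores of 56.2 and 53.4. In the other 3 pairs the gaps were 1.03, 1.12 and 1.48 kb. Such neighbours may be read as 1 broad enrichment or as 2 separate ones, which the list does not resolve.

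The score of a peak is -10 x log10 of its p-value from the peak caller, and calling stopped at 50. The median score was 58.1 on the short arm (56.5 to 59.9) and 59.2 on the long arm (57.3 to 60.6), so the intervals overlapped over most of their length. On all other chromosomes the median was 58.8. Scores of 60 or more were found in 102 short-arm peaks (43.0%, Wilson interval 36.9 to 49.4) and in 75 long-arm peaks (46.6%, 39.0 to 54.3), close to the 45.7% of the whole list. Scores of 100 or more were found in 6 short-arm peaks (2.53%, 1.17 to 5.41) and in 8 long-arm peaks (4.97%, 2.54 to 9.5), against 2.92% of the whole list. The arms differed in how many peaks they carried, and a difference in how strongly those peaks scored was not detectable with this number of peaks.

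The arms stood further apart in width, although their intervals still touched. The median width was 960 bp on the short arm (932 to 993) and 911 bp on the long arm (880 to 941), against 960 bp on all other chromosomes (957 to 965). Peaks narrower than 700 bp numbered 19 on the short arm (8.02%, Wilson interval 5.19 to 12.2) and 18 on the long arm (11.2%, 7.19 to 17.0), against 7.94% in the whole list. Peaks of at least 1500 bp numbered 5 on the short arm (2.11%, 0.904 to 4.84) and 1 on the long arm (0.621%, 0.110 to 3.43). The whole list held 5.23% of such wide peaks, above the upper bound of each arm.

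The widest peak of the chromosome measured 1939 bp with a score of 84.4, chr7:7995600-7997538. It was followed by one of 1842 bp with a score of 101.85, chr7:53049264-53051105, which lay 6.85 Mb from the centromere. The third, of 1654 bp with a score of 55.99, chr7:61794433-61796086, was the only long-arm peak of this width and lay 1.90 Mb from the centromere. At the other extreme, the narrowest peaks measured 494 bp with a score of 80.6, chr7:12528595-12529088, then 507 bp with a score of 94.5, chr7:85660007-85660513, and 524 bp with a score of 112.11, chr7:138298382-138298905. All 3 scored well above the median of their arm, and the last of them ranked 8 by score on the chromosome.

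Score varied with width on both arms, as it did in the rest of the list. On the short arm the median score was 63.2 in the 19 peaks under 700 bp, 57.1 in the 188 peaks from 700 to under 1200 bp, and 64.2 in the 30 wider ones. On the long arm it was 73.7 in 18 peaks, 58.2 in 134 peaks and 68.7 in 9 peaks of the same classes. Elsewhere it was 69.8, 57.3 and 64.9. The narrow class thus scored 63.2 on the short arm and 73.7 on the long arm, a contrast that rests on 37 peaks.

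**Figure D3:**
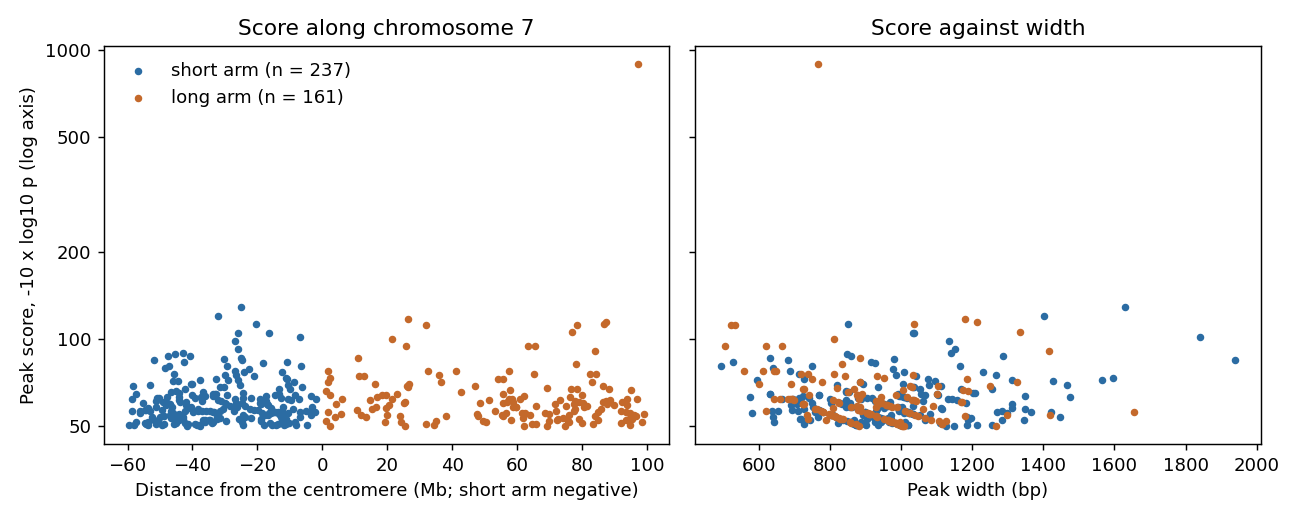
Score of each of the 237 short-arm and 161 long-arm peaks, as -10 x log10 of the p-value on a log axis, plotted against the distance from the centromere in Mb (left, short arm negative) and against peak width in bp (right). The peak with a score of 894.31 stands alone near the end of the long arm and has an ordinary width of 766 bp, while every other peak scores below 130.

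The peak at 157.25 Mb, chr7:157253778-157254543, had a score of 894.31 and was second in the whole list. The next score on the chromosome was 128.9. Scores are logarithms of p-values, so their ratio is no fold of enrichment. Only 2 peaks of the whole list exceeded a score of 240. With 766 bp the peak was narrower than the median of its arm. Among the 1116 peaks of the list that measured 700 to under 800 bp, the median score was 59.6 and the second highest was 166.95. There was no replicate library in which the peak could be scored again.

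Its surroundings were not enriched in peaks. Within 1 Mb there were only 2 others, a peak of 695 bp with a score of 61.9 that ended 535 kb before it, chr7:156718313-156719007, and a peak of 929 bp with a score of 54.2, chr7:156448972-156449900. The next peak on the other side, with a score of 51.6, began 1237 kb after it, chr7:158491162-158492139. The last peak of the chromosome ended 1.62 Mb after it and scored 55.2. All 4 neighbours had ordinary scores, so the high value was restricted to a single interval. Leaving the peak out changed the median score of the long arm from 59.2 to 59.1. Whether the peak falls on a gene or on repeated sequence was not analysed here, for want of an annotation and a sequence in this build.

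The next peaks by score were spread over both arms. The second, of 1629 bp and with a score of 128.9, lay on the short arm, chr7:34819199-34820827. The third, of 1401 bp and with a score of 120.53, also lay on the short arm, chr7:27772926-27774326. The fourth and the fifth lay on the long arm and scored 116.95, chr7:86443269-86444449, and 114.27, chr7:147346385-147347599. The last of these was preceded at 562 kb by the peak that ranked 7, with a score of 113.05, chr7:146783191-146784226.

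The HOXA region, from 27.13 to 27.25 Mb, held 0 peaks. In the RefSeq gene order the cluster is preceded by SKAP2 and followed by the homeobox gene EVX1. At the density of the short arm, 0.479 peaks would fall in a region of 120 kb, and 39.5% of short-arm windows of this length held a peak, against 32.4% on all other chromosomes. An empty region was thus the more frequent outcome. The nearest peak ended 21.8 kb below the region, chr7:27107537-27108167, on the SKAP2 side, with a width of 631 bp and a score of 64.4. On the EVX1 side the nearest began 142 kb above it, chr7:27392496-27393212, with a score of 53.1. The stretch between these peaks was 284 kb.

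The number of peaks around the cluster did not stand apart from that of its surroundings. Within 1 Mb of the region there were 12, at 5.66 per Mb (exact Poisson interval 2.92 to 9.89), an interval that covers the 3.99 per Mb of the arm and the 4.70 per Mb from 10 to 50 Mb. At least 12 peaks were found in 19.5% of windows of the same length on all other chromosomes. Scores ran from 51.5 to 120.53 with a median of 58.8. The highest was the peak at 27.77 Mb already named, which ranked 3 on the chromosome, 523 kb above the region. A peak of 1077 bp with a score of 72.56, chr7:27015868-27016944, lay 113 kb below the region and was second among the 12.

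The EGFR region, from 55.087 to 55.275 Mb, also held 0 peaks, and it had few neighbours. At the density of the arm 0.750 peaks would fall in its 188 kb, and 55% of short-arm windows of that length held a peak, against 44.1% on all other chromosomes. SEC61G, which encodes a subunit of the protein translocation channel, precedes EGFR in the gene order, and LANCL2 follows it. On the SEC61G side the nearest peak ended 104 kb away, chr7:54982134-54982788, with a width of 655 bp and a score of 56.3. On the LANCL2 side the nearest began 40.9 kb away, chr7:55315914-55316910, with a width of 997 bp and a score of 50.6. These 2 peaks were the only ones within 1 Mb, at 0.914 per Mb (0.111 to 3.30), where the arm density of 3.99 would give 8.73 peaks. At most 2 peaks were found in 16.6% of windows of this length on all other chromosomes. Those windows include chromosome X, at 0.686 peaks per Mb, and any sequence to which reads could not map. The share was not corrected for either, so it may be too high as a reference for EGFR. The density was 1.68 per Mb within 0.5 Mb of the region and 1.91 within 2 Mb. EGFR lies in the stretch of lower density from 50 to 60 Mb, and both of its neighbours scored below the median of the arm.

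The MET region, from 116.312 to 116.438 Mb, held 1 peak although it lies on the sparse arm. This peak, chr7:116374027-116374933, was 907 bp wide and scored 55.4. It was 62.5 kb from the lower and 63.5 kb from the upper bound, in the middle of the region and away from both ends. At the density of the long arm 0.205 peaks would fall in 126 kb. A peak was held by 19.2% of long-arm windows of that length and by 33.4% of those on all other chromosomes. The caveolin genes CAV2 and CAV1 precede MET in the gene order, and CAPZA2, for a subunit of an actin capping protein, follows it.

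Within 1 Mb of the MET region there were 7 peaks, at 3.29 per Mb (1.32 to 6.78), where the arm density would give 3.46 peaks. The median window of this length on all other chromosomes also held 7, and 54.6% of such windows held at least 7. The density was 1.78 per Mb within 0.5 Mb. The nearest peak below ended 588 kb away with a score of 72.87, chr7:115722693-115723878, and closed a run of 4 peaks. Above, the nearest began 446 kb away with a score of 60.5, chr7:116884483-116885655. The highest of the 7 was a narrow peak of 644 bp with a score of 77.79, chr7:117391073-117391716, at 953 kb. MET lay in the window from 115 to 120 Mb, which held 16 peaks. That window opens the outer stretch of the long arm, whose boundary was chosen from the windows.

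The BRAF region, from 140.434 to 140.625 Mb, held 1 peak as well. The peak, chr7:140512848-140513776, was 929 bp wide and scored 58.2, and its midpoint was 79.3 kb from the lower bound and 112 kb from the upper. At the density of the arm 0.311 peaks would fall in 191 kb. A peak was held by 27.0% of long-arm windows of this length and by 44.8% of those on all other chromosomes. NDUFB2, which encodes a subunit of mitochondrial complex I, precedes BRAF in the gene order, and MRPS33, for a mitochondrial ribosomal protein, follows it.

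Within 1 Mb of the BRAF region there were 5 peaks, at 2.28 per Mb (0.741 to 5.33), where the arm density would give 3.56 peaks. On all other chromosomes the median window of this length held 7, and 71.0% held at least 5, so the count lay above the arm mean and below the median elsewhere. The nearest below ended 180 kb away with a score of 60.2, chr7:140253269-140254095. The nearest above began 866 kb away with a score of 58.5, chr7:141490752-141491841. The highest, with a score of 64.3, lay 594 kb below, chr7:139838636-139839622. None of the 5 stood out by score. A peak inside a region does not say whether it falls on an exon, an intron or a promoter, which was not analysed here.

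**Figure D4:**
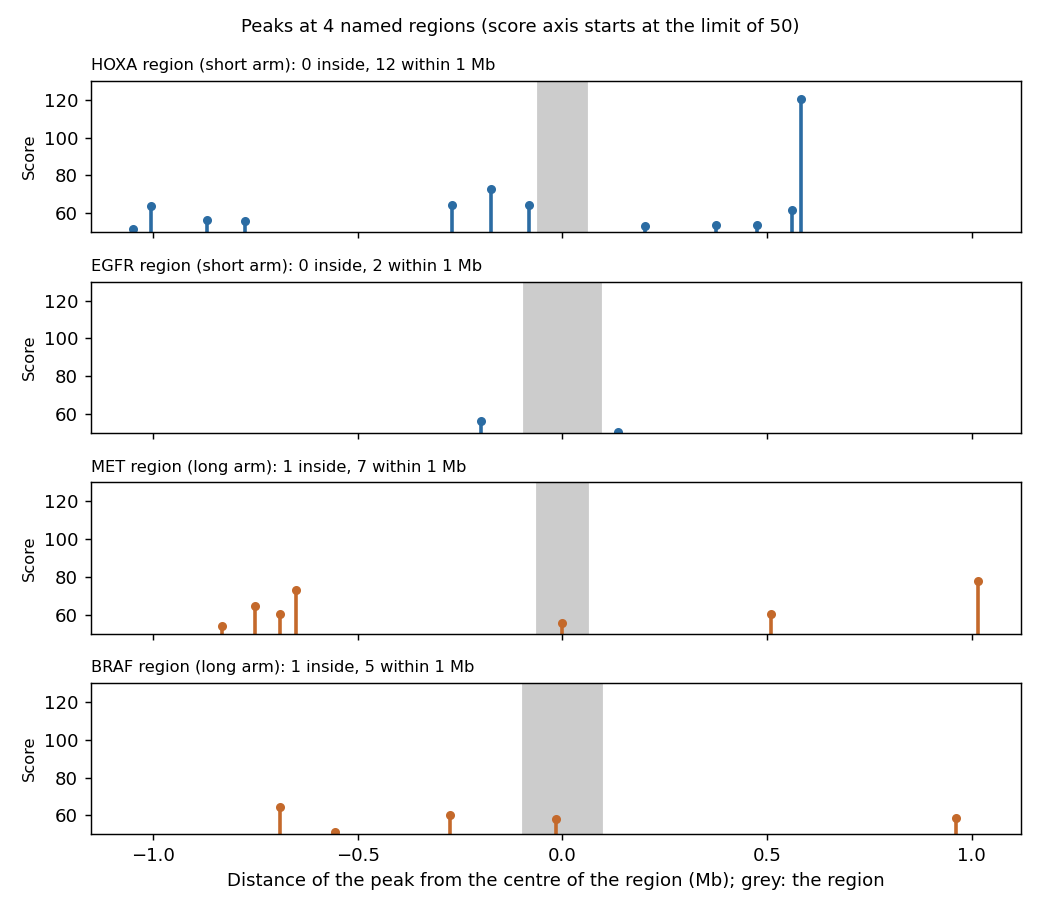
Peaks within 1 Mb of the HOXA, EGFR, MET and BRAF regions (grey), plotted by the distance of the peak's midpoint from the centre of the region in Mb and by score, on an axis that starts at the calling limit of 50. There were 12, 2, 7 and 5 peaks, with 0, 0, 1 and 1 of them inside the region.

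These loci also divide the chromosome into stretches in which peaks and genes can be counted side by side, since gene order needs no shared coordinates. RefSeq (GRCh38.p14) lists 938 protein-coding genes on chromosome 7, and their order was assumed to hold in hg19. Genes of the outer stretches were counted from the ends of the chromosome and peaks from the outermost peak, so those stretches are slightly short for their genes. Up to the middle of the HOXA cluster there were 116 peaks and 156 genes, or 0.744 peaks per gene. From there to EGFR there were 114 peaks and 126 genes, or 0.905 peaks per gene. From EGFR to MET there were 74 peaks and 378 genes, or 0.196 peaks per gene. From MET to BRAF there were 56 peaks and 130 genes, and from BRAF onwards 38 peaks and 145 genes, or 0.431 and 0.262 peaks per gene.

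The order of the stretches by peak density was not their order by gene density. The stretch from EGFR to MET had 1.21 peaks per Mb (0.95 to 1.52) beside 6.18 genes per Mb. The stretch from HOXA to EGFR had 4.07 peaks per Mb (3.36 to 4.89) beside 4.50 genes per Mb, the lowest gene density of the 5 stretches. The stretch after BRAF was the richest in genes, at 7.90 per Mb, and had 2.07 peaks per Mb (1.47 to 2.84). Lengths run between the outermost peaks while the genes come from another build and reach the chromosome ends, so the genes per Mb are approximate. With 5 stretches no correlation was computed.

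**Figure D5:**
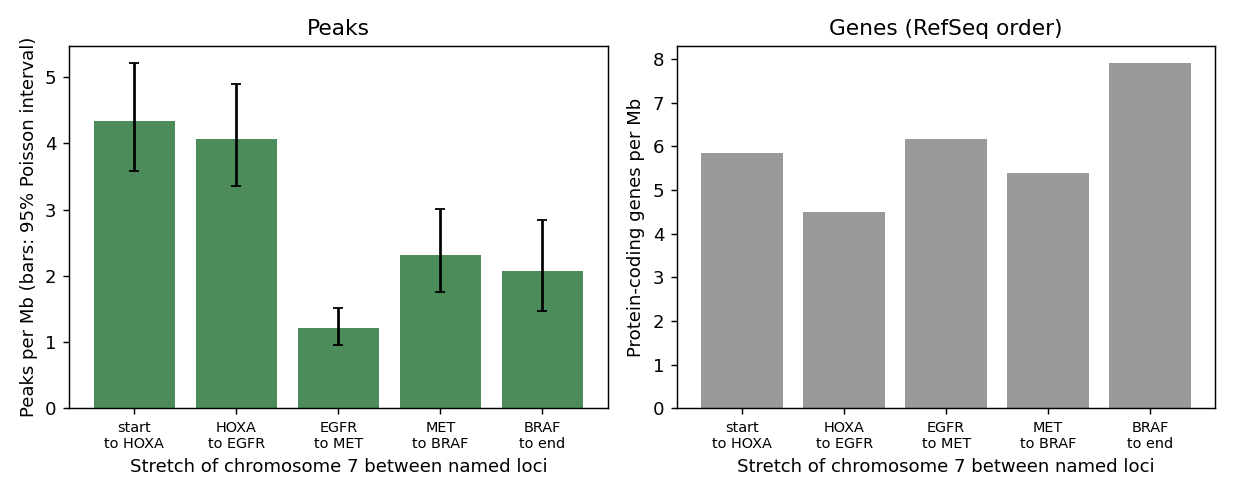
Peaks per Mb with 95% exact Poisson intervals (left) and protein-coding genes per Mb (right) in 5 stretches of chromosome 7 between the named loci. Peaks are most frequent before EGFR, at 4.34 and 4.07 per Mb, and least frequent from EGFR to MET, at 1.21 per Mb, while genes range from 4.50 to 7.90 per Mb in another order.

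As a whole, chromosome 7 had 2.51 peaks per Mb (2.27 to 2.77) and ranked 18 of 23 chromosomes by density, with Y left aside. Chromosomes 8 and 18 were set beside it. Chromosome 8 had 601 peaks at 4.14 per Mb (3.81 to 4.48), and its 5 Mb windows ranged from 0 to 43 with a median of 25. Chromosome 18 had 161 peaks at 2.21 per Mb (1.88 to 2.58), and its windows ranged from 3 to 32 with a median of 7.5. The windows of chromosome 7 had a median of 10 and an SD of 7.92, with extremes of 2 and 30. Those of all other chromosomes except Y ranged from 0 to 45 with an SD of 9.80. The SDs are not directly comparable, since the mean was 12.6 peaks per window on chromosome 7 and 17.3 on all others. The number of peaks on chromosome 18 was the same as that on the long arm of chromosome 7, over a span of 72.9 Mb against 98.97 Mb. The median scores of the 3 chromosomes were 58.5, 60.3 and 58.3 for 7, 8 and 18, and the median widths were 937, 1059 and 953 bp.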

How the data were processed

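Wild-type MDA-MB-231 cells gave 1 immunoprecipitated and 1 input library, which were sequenced on an Illumina HiSeq instrument. The authors deposited 1 peak list from MACS, whose name carries a p-value limit of 1e-05 and model fold limits of 10 and 30. The deposited score was interpreted as -10 x log10 of the p-value, since its lowest value was 50. The submitters' processing notes name hg19 and Bowtie2 2.1.0. The version of MACS, the handling of duplicates and the filtering of artefact-prone regions are not given in the sources used here, and these steps can add or remove peaks in repeats. The series' design text speaks of pericardial RNA, which matches neither the labels nor the list, and was not used.

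Peak width was end minus start. Arms were divided at 59.9 Mb, and an arm's span ran from the first or last peak to that point. Densities have exact Poisson intervals, shares Wilson intervals, medians order-statistic intervals and the ratio of densities an exact binomial interval, all at 95%. Region windows elsewhere were tiled at the length of the region. All windows elsewhere ran from the first base to the last peak of each chromosome, with X included and without a filter for mapping. Chromosome Y was left out of the windows. It was kept in the densities, gaps, scores and widths of all other chromosomes. No hypothesis was tested, because 1 list from 1 pair of libraries has no replicates. The expected counts are density times length. The members, regions and named items (the highest, widest and narrowest peaks, peaks in and beside the named regions, extreme windows, longest empty intervals) were chosen with earlier results of these data known. RefSeq genes, on GRCh38.p14, gave names and order only. The HOXA genes were divided evenly between the stretches on either side, and EGFR, MET and BRAF were counted in none. A genome in the build of the list was not used here, so no peak sequence is shown. The interval and window functions were tested on simulated data. Python 3.11.15, numpy 2.4.6, scipy 1.17.1, pandas 2.3.3 and matplotlib 3.10.9 were used.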

Additional observations from a re-analysis of the deposited data

How the results depend on the processing

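The ratio of short-arm to long-arm density, in total and as a mean over windows, ranged from 2.07 to 2.62 over 6 alternatives (only peaks that reached the median score, peaks under 1 kb apart merged, spans without empty intervals of over 3 Mb, 5 Mb around the centromere left out, and windows of 10 and 1 Mb). All stayed within its interval. Among peaks that reached the median score, which were 113 short-arm and 83 long-arm peaks, the median score was 64.9 on the short and 66.7 on the long arm and the median gap was 320 and 685 kb, as its construction implies, and the median width of the long arm was 879 bp in place of 911 bp, for which the cause was not tested. Of 26 alternative values over all results, 21 stayed within the interval of the value reported and 5 moved beyond it. A reversal was defined only for the 6 alternatives of the arm ratio, and 0 of them reversed. The intervals at the named regions rest on 2 to 12 peaks and are wide. The planned work on peak sequence and annotation was not run. Without depth, a place with no peak cannot be read as a place without binding.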

Other observations

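Some exact score values recurred across the list. The 5 commonest values of the whole list were 69.82, 62.13, 77.79, 86.02 and 50.1, shared by 85, 67, 61, 39 and 28 peaks. On chromosome 7 they were found in 10 of 161 long-arm peaks (6.21%, Wilson 95% interval 3.41 to 11.1) and in 3 of 237 short-arm peaks (1.27%, 0.431 to 3.65), against 2.71% of the whole list. The value 62.13 alone was found in 5 long-arm peaks and 1 short-arm peak. Of the 13 peaks on the chromosome, 12 were narrower than 700 bp, and so were 246 of the 280 in the whole list. The narrow peak 953 kb above the MET region was one of them. The intervals of the arms overlap slightly, and the difference was not tested. Over all values, 55 short-arm peaks (23.2%, 18.3 to 29.0) and 52 long-arm peaks (32.3%, 25.6 to 39.9) shared their exact score with another peak of the chromosome. These intervals overlap too. Such matches were sought within the chromosome only, so the shares are a different measure from those of the 5 commonest values.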
